A study of Mus musculus with 4 samples.

Results

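In the c-Kit-enriched mouse foetal liver cells profiled here, 1954 m6A peak summits of IP replicate 1 and 1877 of IP replicate 2 lay in coding sequence of long internal exons. These were 18% of 10829 and 17.9% of 10464 summits placed on an annotated coding transcript, out of 15635 and 14872 deposited peaks. Their mean number was 1915.5 ± 54.4 (SD, n = 2). The members were chosen by position alone, separately in each list. A summit counted when it fell on the longest-coding transcript of a single protein-coding gene and outside the exons of every other gene. It had to lie in coding sequence more than 200 nt from the start and the stop codon, and in an exon of at least 400 nt that was neither the first nor the last. They fell in 1370 and 1339 genes, of which 1255 had a member in both replicates.

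The series holds 4 libraries from C57BL/6 mice, namely 2 m6A immunoprecipitates (IP) and 2 inputs, all of Kit+ foetal liver cells enriched on magnetic columns. The donors carried the Ythdf2 fl/fl alleles without Cre, in which loxP sites flank exon 2 and GFP follows the start codon, so YTHDF2, a reader of m6A, was present as a GFP fusion in every library. By their labels the IP libraries were made from total RNA and the inputs from polyA RNA. There is 1 genotype and no second group, so the results are levels in 2 replicates, and neither the embryonic day nor whether embryos were pooled is given in the sources used here. A peak list carries no expression level, so the cell label could be checked only by which genes had a peak. Of 45 haematopoietic regulators, 36 and 37 had a placed summit in replicates 1 and 2, while of 12 liver cell markers 3 and 2 had one. Over all 21864 protein-coding genes, 6950 and 6737 had one, so the few liver markers say little by themselves. Kit itself, Myb and Gata1 had no placed summit in either list, while Cd34, Gata2, Tal1, Lmo2 and Klf1 had at least 1 in both.

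N6-methyladenosine (m6A) is a methyl mark that a nuclear complex built around METTL3 and METTL14, with VIRMA and ZC3H13 among its accessory subunits, writes on adenosines in mRNA. It is found mostly in a short sequence context whose commonest core is GGAC, with the third letter methylated, and it is known to be dense around stop codons and in unusually long internal exons. The YTHDF proteins bind the mark in the cytoplasm and lead many of the bound transcripts to decay. In meRIP-seq, RNA fragments are pulled down with an antibody against m6A and the places where IP reads pile up over a control are called as peaks, so a summit marks a methylated stretch and not a single adenosine.

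The strongest members are shown first with the letters that their summits surround. The 10 pairs of peaks with the highest mean fold enrichment were taken from 1333 pairs with at least 5 control reads of background in both replicates. Of these 10 pairs, 8 had a GGAC whose A lay within 50 nt of both summits. The 29 nt around that A are printed on the transcribed strand in GRCm38 coordinates, with GGAC in capitals. All sequences printed here were read from GENCODE M21 transcripts and matched the genome letter for letter.

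Kdm6b, exon 11 of 23, chr11:69404610-69404638, minus strand: catcaacccagtGGACacggcagacccag
Dstyk, exon 3 of 13, chr1:132449563-132449591, plus strand: tggacagctggtGGACctgggctacctga
Ralgapa2, exon 34 of 42, chr2:146342383-146342411, minus strand: aaggttttatatGGACctctggaaggccg
Eif2ak3, exon 13 of 17, chr6:70892607-70892635, plus strand: cagttgcctgacGGACtgcgaggacgtgg
Plekhm2, exon 9 of 20, chr4:141632370-141632398, minus strand: gagcaaggggaaGGACtcagcagtacggc
Cic, exon 2 of 21, chr7:25272995-25273023, plus strand: tgccccatccagGGACattgggggcctcc
Kif13b, exon 39 of 40, chr14:64803535-64803563, plus strand: agcaatgctaggGGACagactctggggag
Cep97, exon 9 of 11, chr16:55915412-55915440, minus strand: ccagttgcttcaGGACtgtctccagtgtc

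In Kdm6b, which encodes a histone demethylase, the A lay 15 and 9 nt downstream of the summits of replicates 1 and 2 and was the second base of aspartate codon 939. In Dstyk, which encodes a protein kinase, it lay 4 and 6 nt upstream of the summits and was the second base of aspartate codon 307. The GGAC of Eif2ak3, which encodes the PERK kinase of the unfolded protein response, also held an aspartate codon, number 764. In Ralgapa2, Plekhm2, Kif13b and Cep97 the A closed a glycine codon, and in the transcriptional repressor gene Cic it opened a threonine codon. The other 2 of the 10 pairs, in Tnrc18 and Chpf, had no GGAC within 50 nt of both summits. Over all pairs, 677 of 1557 (43.5%) had such a GGAC.

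A further 9 sequences come from genes of m6A reading and writing, of DNA repair and of blood cell growth and inflammation that are described further on. They were picked by gene among pairs with a GGAC within 50 nt of both summits, so the presence of the core follows from the choice.

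Ythdf1, exon 5 of 6, chr2:180910923-180910951, minus strand: ggtctggtctcaGGACaagtggaagggaa
Ythdf2, exon 4 of 5, chr4:132204401-132204429, minus strand: gaaatctgctgtGGACtacaacacatgtg
Ythdf3, exon 5 of 6, chr3:16204255-16204283, plus strand: caaggcatgactGGACtgaaaattggtgg
Virma, exon 14 of 25, chr4:11526718-11526746, plus strand: atgtgaacatggGGACtaccctgcacaga
Zc3h13, exon 10 of 19, chr14:75323360-75323388, plus strand: cagagacatgcgGGACtccagagagatga
Brca1, exon 10 of 23, chr11:101525767-101525795, minus strand: ccttcaacctgaGGACttcatcaagaaag
Palb2, exon 4 of 13, chr7:122127285-122127313, minus strand: gacacgagcacgGGACagtccagttcagg
Myc, exon 2 of 3, chr15:61987905-61987933, plus strand: catcatcatccaGGACtgtatgtggagcg
Tnfaip3, exon 7 of 9, chr10:19004722-19004750, minus strand: cctgtttcaaaaGGACtacagcagagccc

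In Ythdf2 the A lay 1 and 24 nt upstream of the summits, and in Virma it lay 4 and 34 nt downstream of them. The A of the Palb2 sequence lay 7 and 5 nt downstream of its summits. That of Tnfaip3 lay 34 and 38 nt upstream. In 7 of the 9 sequences the base after GGAC was a T. The 9 were picked by gene and for a GGAC within 50 nt of both summits, so this is not the share among members. Within 50 nt of the summit, 57.0% and 56.0% of all members had GGAC, and 23.2% and 22.9% had GGACT.

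Enrichment of the members was moderate, broad and much the same in both replicates. Fold enrichment is the IP pileup over the control background at the summit, each with 1 added, as the peak caller wrote it. Control reads here are that background in units of 1 control read. They need not be whole and are not a count of reads at the summit. Its median was 3.90 and 4.02, with quartiles of 2.94 and 5.29 in replicate 1 and of 2.94 and 5.57 in replicate 2. The medians of all placed summits were 4.10 and 4.27. The median member had 78 and 77 IP reads over 21 and 17.4 control reads at its summit, a −log10 q of 18.1 and 17.3 and a width of 492 and 507 bp. Coding summits in last exons had higher medians, of 4.90 and 5.08, and those in internal exons under 400 nt lower ones, of 3.09 and 3.31. The control reads of those classes had medians of 13 and 10 in last exons and 22 and 17.0 in short internal exons. Fold enrichment depends on both readings, so its order between classes is an order of ratios and not of methylation.

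The members recurred between replicates. A peak overlapping by at least 1 bp was found in the other list for 1760 of 1954 members of replicate 1 (90.1%, exact 95% interval 88.7 to 91.4) and for 1739 of 1877 of replicate 2 (92.6%, 91.4 to 93.8). Over all placed peaks the shares were 85.5% and 87.7%. Over summits in short internal coding exons they were 70.5% and 73.9%, with upper bounds of 76.3% and 79.5%. The peaks of that class were narrower and weaker, with a median width of 250 and 260 bp against 492 and 507 bp for members. Their median −log10 q was 10.5 and 10.3 against 18.1 and 17.3, and the part of width and strength in the shares was not tested. Stop codon summits recurred at 87.1% and 92.4%. Coding summits in last exons recurred at 90.6% and 90.8% and those in first exons at 91.7% and 91.5%, with intervals that overlapped those of the members. Such intervals cover counting error only. Of the exons with a member, 90.0% and 93.3% had one in the other replicate as well, as did 91.6% and 93.7% of the genes. The 1557 pairs with 1 peak to 1 peak in the same exon had summits a median of 17 nt apart. Across these pairs, which share their genes and are not independent, Spearman's rho of the fold enrichments was 0.797 and the SD of their log2 difference 0.43. In 97.0% of pairs the folds differed by less than 2-fold. With at least 50 IP reads in both replicates, rho was 0.814 and the SD 0.37 over 1178 pairs.

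**Figure D1:**
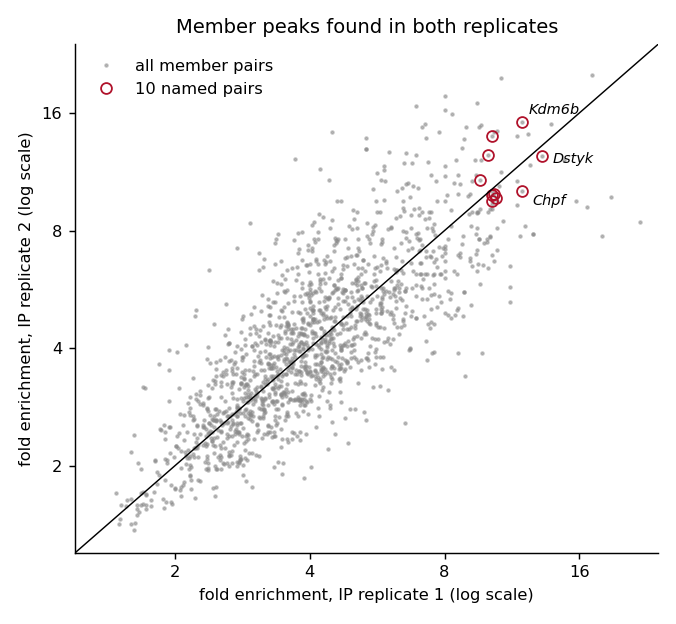
Fold enrichment of 1557 member pairs in IP replicate 1 against IP replicate 2, both on log scales, with the line of equal values. Points are pairs of overlapping peaks and red circles the 10 named pairs. The pairs follow the line with an SD of 0.43 in log2. The named pairs, chosen by their mean fold, lie at 9.52 or more in both replicates.

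Among the 10 strongest pairs, Kdm6b had a fold of 11.9 in replicate 1, from 102 IP reads over 8.80 control reads, and of 15.2 in replicate 2, from 105 over 5.62. The peak of replicate 1 spanned chr11:69404208-69405176 of GRCm38, and both summits lay over 600 nt from either end of the 2168-nt exon. Dstyk reached 13.2 and 12.4 (93 and 80 IP reads) in an exon of 664 nt. Ralgapa2, which encodes a subunit of a GTPase activator for Ral, reached 10.2 and 14 (89 and 90 IP reads). The pairs were chosen by their mean fold over both replicates, so a high level in both largely follows from the choice. The 2 replicates did not agree on the order of these 3 genes.

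Tnrc18 had folds of 9.98 and 12.5, and Chpf, which encodes a chondroitin polymerising factor, of 11.9 and 10.1. Their summits were 93 and 105 nt apart between replicates, the widest among these pairs. Eif2ak3 had 9.59 and 10.8, and its 2 summits differed by 1 nt. Plekhm2, an adaptor that positions lysosomes, had 10.3 and 9.94, and Cic had 10.4 and 9.68 from 137 and 121 IP reads. Kif13b, a kinesin, had 10.2 and 9.84, and Cep97, a centrosomal protein, had 10.2 and 9.52. In all 7 genes of Tnrc18 to Cep97 the replicates differed by less than the SD of the log2 differences over all pairs.

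Exon length set apart where coding summits were found. In genes with a placed summit, coding sequence of long internal exons had 0.907 and 0.871 summits per kb over 2155.42 kb of positions that met the rule. That of internal exons under 400 nt had 0.0321 and 0.0305 per kb, from 234 and 222 summits in 7288.75 kb. The ratio was 28.4 ± 0.250 (SD, n = 2). Pooled over the genes that had both kinds of exon it was 26.0 ± 0.489. Genes entered these densities by having a placed summit, and in 493 and 490 genes every placed summit was a member. The part of this choice in the ratio was not tested. Coding parts of last exons had 0.802 and 0.772 per kb and the 200 nt around stop codons 1.16 and 1.09.

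The rise with length was steep up to 400 nt and levelled off above it. Internal exons of 100 to 199 nt had 25 and 19 summits in 4494.64 kb (0.00556 and 0.00423 per kb). Those of 200 to 299 nt had 0.0601 and 0.0555 per kb, and those of 300 to 399 nt 0.443 and 0.447. From 400 to 599 nt the density was 1.10 and 1.07 per kb, and from 600 to 999 nt 1.10 and 1.06. Beyond that it declined, to 0.856 and 0.803 at 1000 to 1999 nt and to 0.651 and 0.634 in longer exons. The share of exons with a summit rose from 0.0733% and 0.0557% at 100 to 199 nt to 44.7% and 43.4% at 400 to 599 nt and stood at 83.1% in both replicates at 2000 nt and more. In density the replicates differed at each length by less than the step to the neighbouring length, other than between 400 to 599 and 600 to 999 nt.

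**Figure D2:**
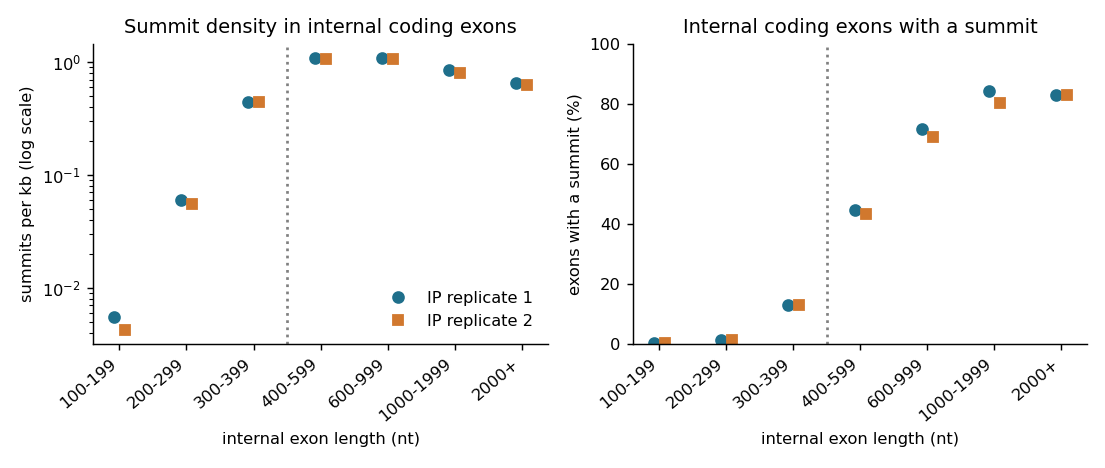
Summits per kb of coding sequence (left, log scale) and the share of exons with at least 1 summit (right) by length of the internal exon, for the 2 IP replicates. The dotted line marks 400 nt. Density rises from 0.00556 per kb at 100 to 199 nt to 1.10 at 400 to 599 nt in replicate 1, and the share of exons with a summit is 83.1% at 2000 nt and more.

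The limit of 400 nt cut through a gradient. Just inside it, 113 exons of 400 to 419 nt had 31 and 26 summits (0.783 and 0.657 per kb, median fold 3.17 and 3.03). Just outside, 136 exons of 380 to 399 nt had 34 and 35 summits (0.757 and 0.779 per kb, median fold 2.42 and 2.98). The densities on the 2 sides overlapped. Kif18a, a mitotic kinesin with an exon of 412 nt, lay just inside with folds of 3.15 and 3.12, and Kdm5a, a histone demethylase with one of 411 nt, had 2.60 and 5.18 there.

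Of 4416 internal exons that met the rule on length and codons, 2477 lay in 1926 genes with a placed summit. Of those, 1615 (65.2%) held a member in replicate 1 and 1558 (62.9%) in replicate 2, and 1453 held one in both. Of the members, 1766 (90.4%) and 1696 (90.4%) kept their place in a long internal coding exon in every basic transcript of the gene whose exons hold the summit. Members in genes with 1 coding transcript meet this by construction, and transcripts without the summit are left out of it. Of 1344 and 1274 members in genes with several transcripts, 342 (25.4%) and 316 (24.8%) were missing from at least 1 transcript. The 757 exons without a member in either replicate had a median length of 523 nt, against 695 nt for all 2477, and 88 of them were at least 1000 nt long.

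Inside the exons the summits kept away from both ends, and more so from the downstream one. Under 100 nt from the nearest splice junction there were 63 and 56 summits (0.159 and 0.141 per kb), at 100 to 199 nt 0.888 and 0.807 per kb, and at 200 nt or more 1.13 and 1.11. The ratio of the last to the first zone was 7.47 ± 0.495 (SD, n = 2). Density did not rise steadily within the last zone. It was 1.77 and 1.83 per kb at 200 to under 250 nt and 0.661 and 0.608 at 500 nt or more. In exons of 400 to under 600 nt the last zone had 2.60 and 2.84 per kb and the first 0.259 and 0.218. In exons of 1000 nt or more these densities were 0.848 and 0.816 against 0.120 and 0.102. Members near a junction had a median fold of 3.18 and 3.39, against 4.05 and 4.13 for those at 200 nt or more.

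The 2 ends differed. From the downstream end, where the next intron begins, the first 150 nt held 13 and 9 summits in 346.623 kb (0.0375 and 0.0260 per kb). The next 150 nt held 543 and 528 (1.57 and 1.53 per kb). From the upstream end the first 150 nt held 167 and 155 summits (0.652 and 0.605 per kb) and the next 150 nt 522 and 510 (1.70 and 1.66 per kb). The density at the downstream end stepped from 0.0600 and 0.0514 per kb at 100 to 149 nt to 0.752 and 0.744 at 150 to 199 nt and 1.94 and 1.87 at 200 to 249 nt. Genes on the plus and the minus strand gave the same pattern, with 4 and 5 summits in the last 150 nt on plus-strand genes and 9 and 4 on minus-strand genes. Coding parts of last exons, whose only junction is upstream, had 0.516 and 0.501 summits per kb in the first 150 nt and 1.33 and 1.39 in the next.

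**Figure D3:**
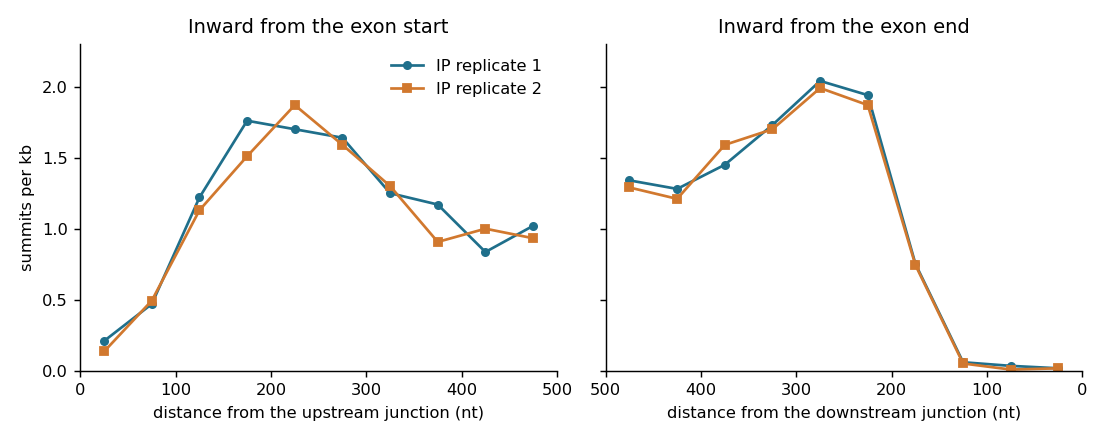
Summits per kb of eligible coding sequence in 50-nt bins from the upstream junction (left) and the downstream junction (right) of long internal exons, for the 2 IP replicates. The first 3 bins inside the downstream junction lie at or under 0.0600 per kb, while the third bin inside the upstream junction lies at 1.22 and 1.13.

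The peaks were called on the genome and not on spliced transcripts, and the read direction and extension length are not given in the sources used here. Member peaks reached past the upstream end of their exon, into the intron, in 41.9% and 41.1% of cases, by a median of 63 and 62 nt and by 200 nt or less in 99.3% and 98.8% of these. Past the downstream end reached 1.84% and 1.97%. This shift towards the upstream intron ran the same way as the difference between the 2 ends, and its part in that difference, and in the low density of exons near or under 200 nt, was not tested.

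Most exons held a single summit. In replicate 1, 1389 exons had 1 member, 156 had 2 and 70 had 3 or more. In replicate 2 the numbers were 1350, 142 and 66. Neighbouring summits in 1 exon were a median of 852 and 851 nt apart and at least 268 and 178 nt. Members lay at a median of 43.7% and 43.9% of the coding sequence. The median of all eligible positions was 44%.

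Spen, which encodes a transcriptional corepressor that acts with Xist RNA, had the most summits in 1 exon. Its exon 12 of 16 (chr4:141471370-141479389, minus strand, 8020 nt) held 9 summits in replicate 1 and 8 in replicate 2, with folds of 2.16 to 4.05 and of 1.85 to 4.95. Exon 10 of Bod1l, a gene that protects stalled replication forks, held 7 and 8 summits over 5953 nt with folds of 2.62 to 5.21 and of 2.54 to 4.72. All 7 of replicate 1 overlapped a peak of replicate 2. In both exons several summits fell at nearly the same place in both replicates, such as 467 and 465 nt from the start of the Spen exon and 1633 and 1645 nt from that of the Bod1l exon.

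Mki67, the gene of the proliferation marker Ki-67, held 7 summits in each replicate over an exon of 6836 nt. Their folds were only 1.52 to 2.04 and 1.43 to 2.04, from 115 to 172 and 126 to 167 IP reads, so the control background was high there. Ice1, a subunit of the little elongation complex, had 5 and 6 summits with folds of 2.43 to 6.57 and 2.27 to 5.71. Ankrd11, a chromatin regulator, had 5 and 6 in 6518 nt, and Ranbp2, a protein of the nuclear pore, had 5 in each replicate with folds of 2.16 to 2.54 and 1.68 to 2.46. Zfp407, Prr14l and Hivep1 had 9 to 11 summits over both replicates.

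**Figure D4:**
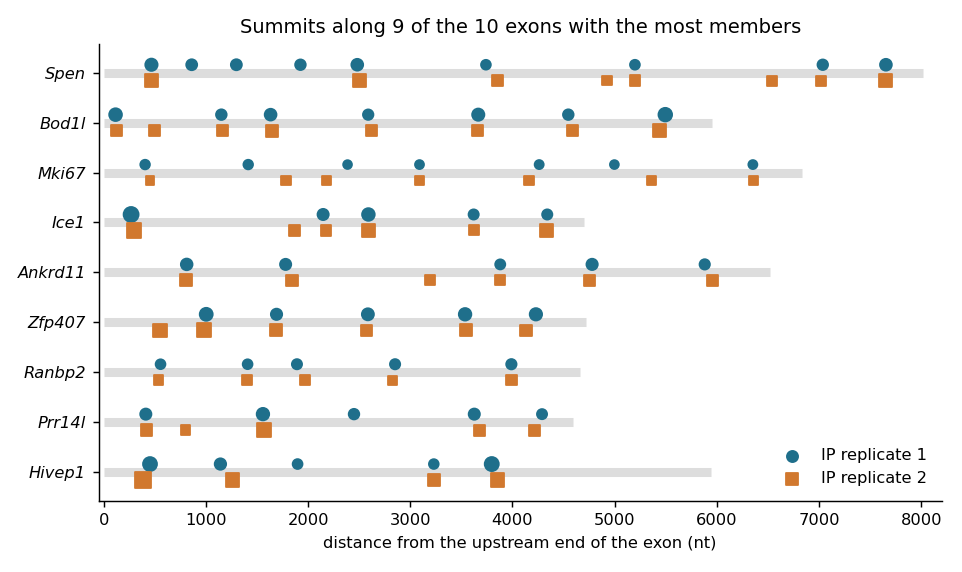
Positions of member summits along 9 of the 10 exons with the most members, in nt from the upstream end of each exon (grey bars, drawn to length). Circles are IP replicate 1 and squares IP replicate 2, and the marker area grows with fold enrichment. Summits of the replicates fall near each other at many positions, and Mki67 has the smallest markers, with folds of 1.43 to 2.04.

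Length alone did not bring many summits. Bsn, a gene best known at synapses, had an exon of 6642 nt with 1 summit in each replicate, of 7.38-fold and 8.94-fold from 27 and 29 IP reads. Srrm2, a spliceosome-associated protein gene, had 2 and 3 summits of 1.64-fold to 2.24-fold in 6569 nt. The longest exons without any were in Unc13b (8367 nt), Ank2 (6198 nt) and Dst (5292 nt), genes with 0 or 1 placed summit elsewhere. Levels of these transcripts are not in the peak lists, so an unmethylated exon and a transcript at a low level cannot be told apart here.

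Many genes with a member had no other placed summit. Of the genes with a member, 35.5% and 35.8% had a summit within 200 nt of the stop codon, against 50.7% and 48.8% of the other genes with a placed summit, which by the rule must have theirs somewhere else. For 493 (36.0%) and 490 (36.6%) genes every placed summit was a member. In 352 and 364 genes with 1 member and 1 stop codon summit, the member had the higher fold in 57.1% and 53.3%, and the median log2 difference, member over stop codon summit, was 0.15 and 0.10.

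The core motif was near the summits of the members about as often as near all placed summits, which include the members. GGAC was searched on the transcribed strand of the spliced transcript. It lay within 50 nt of the summit in 57.0% of members of replicate 1 and 56.0% of replicate 2, while all placed summits gave 56.1% and 56.0%. The other places differed, from 49.2% and 50.5% at start codons to 71.0% and 64.5% in coding parts of first exons. Of all 16464 non-overlapping windows of the same 101 nt in the exons of members, 37.9% held GGAC. The ratio of members to windows was 1.49. GGACT stood out further, with 23.2% and 22.9% against 11.4% (ratio 2.02), ahead of GAACT (1.64), GGACA (1.55), GGACC (1.43) and GGACG (1.25). AAAC, at 35.7% and 35.3% against 34.5%, did not differ by much. The broader DRACH context was in 96.7% and 96.5% of members and already in 89.3% of windows. Every match of the longer GGAC motifs is also a match of GGAC, and those that do not end in G match DRACH too. The mean GC content was 52.2% in members of both replicates and 51.9% in the windows.

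GGAC was densest just downstream of the summit. In the 20 nt from the summit on, 20% and 20.6% of members had its A, against 13.4% and 14.7% in the 20 nt before. At 180 to 199 nt downstream the shares were 8.60% and 8.79%. The side was the same in both replicates. Reading frame did not mark the sites out, since the GAC was an aspartate codon in 55.7% and 55.0% of GGAC near members and in 54.6% of all 8662 GGAC in the same exons.

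**Figure D5:**
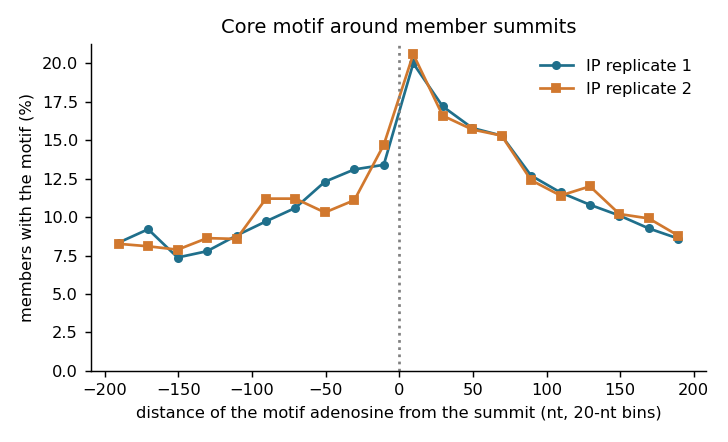
Share of members with the core motif whose A lies in each 20-nt bin around the summit, for the 2 IP replicates. Positive distances are downstream in the transcript. The share is highest just after the summit, at 20% and 20.6%, and falls to 8.60% and 8.79% at 180 to 199 nt.

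Genes of the m6A pathway were themselves among the carriers. For a gene with several members, the folds given from here on are those of its most significant pair of overlapping peaks. That pair need not hold the gene's highest fold. Ythdf1, Ythdf2 and Ythdf3 share a layout in which the next-to-last exon is long and holds most of the coding sequence, and each had 1 member there in both replicates. Ythdf2 had folds of 3.49 and 3.44 from 164 and 165 IP reads over 53.0 and 45.0 control reads. Ythdf3 had 5.43 and 4.63 and Ythdf1 3.29 and 2.37. Virma had 3 members in each replicate, in exons 8, 10 and 14, at 4.75 and 5.29. Zc3h13 had 3 in each as well, at 2.90 and 3.25.

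Of all genes with an eligible exon, 35.7% had a member in both replicates. Among listed genes of RNA processing and decay with such an exon, 29 of 35 (82.9%) did. Upf2, which acts in nonsense-mediated decay, had the highest significance at 5.59-fold and 8.28-fold, each with 112 IP reads. Son, a splicing co-factor with an exon of 5970 nt, had 4 and 5 members. Tut4, a terminal uridylyltransferase, reached 5.84 and 5.61, and Tnrc6c, a partner of Argonaute, 3.95 and 5.54. The microRNA-processing gene Dicer1 had 2 members in each replicate, in exons 21 and 23, at 3.99-fold and 5.37-fold. Ythdc1, Srrm1, Cpsf6 and Edc4 had no placed summit.

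Nearly all listed genes of genome maintenance with an eligible exon carried members, on a list written with earlier results of these data known. Of 27 such genes, 26 (96.3%) had a member in both replicates, against 35.7% of all genes with an eligible exon. Atr, the other one, had no placed summit. The longest eligible exons were also long, with a median of 1434 nt against 760 nt over all genes, both among genes with a placed summit. Fancm, a helicase of the Fanconi anaemia pathway, had 4 and 3 members, with 7.02 and 7.57 at the most significant pair. Another of its pairs had 8.26 and 5.55. Palb2, which links BRCA1 and BRCA2, had 2 in each and reached 6.22 and 8.64. Brca2 had 6 and 5 members in exons 10 and 11 (1107 and 4809 nt) and reached 8.25 and 8.21, and Brca1 had 3 and 4 in exon 10 (3315 nt) and reached 3.62 and 4.11. The mismatch repair gene Pms2 had 4.60 and 5.66, Trp53bp1 3.70 and 7.55, and the polymerase gene Rev1 3.82 and 4.51.

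Of 29 listed kinetochore, spindle and centrosome genes with an eligible exon, 26 (89.7%) had a member in both, against 35.7% of all genes with such an exon. Pcnt, a scaffold of the centrosome, had 4 in each replicate and reached 7.94 and 7.22. Cep350 had 4 in each at 6.07 and 8.13, and Cenpf, a kinetochore protein, 6 and 7. Tacc2 had 1 in each at 7.64 and 10.7. Cep192 (5.39 and 4.90), Ninl (3.96 and 4.64) and the cohesin protector Sgo1 (3.88 and 3.59) followed.

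Of 61 listed chromatin regulators with an eligible exon, 53 (86.9%) had a member in both, against 35.7% of all genes with such an exon. Kmt2d, a histone methyltransferase, had 9 and 10 members spread over 6 exons, more than any other gene on the lists. Setd1b had 5 in each over 4 exons and reached 5.12 and 5.34. Bcorl1 reached 6.56 and 12.6, Nsd1 5.44 and 7.62, and the acetyltransferase gene Ep300 6.05 and 4.11. Among the others, Asxl2, Ncor1, Phc3 and L3mbtl3 had placed summits but no member. Of 29 zinc finger factors with an eligible exon, 18 had a member in both, among them Rreb1 (4.04 and 5.47), Zfp608 (8.83 and 5.58), Zeb1 (4.81 and 6.82), Zmym2 (4.98 and 5.87), Znfx1 (5.82 and 6.82) and Zeb2 (3.55 and 4.55).

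The blood cell regulators were carriers in some cases and not in others. Of 15 with an eligible exon, 7 (46.7%) had a member in both replicates, against 35.7% of all genes with such an exon. Myc, which drives growth and is cut back as progenitors differentiate, had 1 member in each in exon 2 of 3 (772 nt), with folds of 2.16 and 2.01 from 175 and 168 IP reads over 92.0 and 79.0 control reads. Zbtb7a, a repressor of foetal globin genes, had 3.66 and 4.11. Tet2, a DNA demethylating enzyme, had 4.81 and 2.65, Asxl1 3.71 and 2.96, Sh2b3, an inhibitor of cytokine receptor signalling, 3.88 and 4.36, and Sos1 2.91 and 2.40. Bcor had 1 member in replicate 1 and 3 in replicate 2, and Klf1, the erythroid factor, 1 in replicate 2 alone. Gata2, Tal1, Gfi1, Etv6 and Mycn had placed summits outside the long internal exons, Nf1 had 1 in replicate 2 alone, and Mecom had none.

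Of 16 genes of inflammation and interferon with an eligible exon, 9 (56.2%) had a member in both, against 35.7% of all genes with such an exon. Helz2 had 6 in each replicate and reached 5.34 and 12.9, and Rnf213 had 5 and 4 and reached 7 and 7.10. Parp9 (6.18 and 7.23), Parp10 (5.63 and 3.98) and Parp14 (3.46 and 3.84) are interferon-induced members of 1 family. Tnfaip3, which ends NF-kappaB signalling, had 7.12 and 5.72 from 31 and 23 IP reads, and Tank 4.32 and 4.14. Ripk1, a kinase below the TNF receptor, had 3.26 and 2.44, and Nfkbiz had 2 members in each at 4.97 and 5.41 from 17 and 16 IP reads. Nlrp3 had 2 members in replicate 1 alone. Stat2, Cyld and Map3k14 had placed summits elsewhere, and Nlrc5, Nod1 and Nod2 had none.

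These shares need the shares of all genes beside them. Of 3517 genes with an eligible exon, 1255 (35.7%) had a member in both replicates, and of the 1926 that also had a placed summit, 65.2%. On the latter base the lists gave 100% for genome maintenance, 96.3% for kinetochore, spindle and centrosome genes, 88.3% for chromatin regulators, 93.5% for RNA processing and decay, 90.0% for zinc finger factors, 50% for blood cell regulators and 69.2% for inflammation and interferon. A member is itself a placed summit, so a gene can enter that base through the very member counted. In 493 and 490 genes every placed summit was a member. The part of this in the 65.2% and in the list shares was not tested. The longest eligible exon had a median of 760 nt over the 1926 genes and of 1434, 1234, 1354, 1521, 1887, 665 and 806 nt over the lists in the same order. The 5 lists with medians of 1234 nt or more were those with shares of 88.3% or more, and the part of exon length in the shares was not tested. The lists were written with earlier results of these data known, and their shares were not tested. Neither of the 2 liver cell markers with an eligible exon, Apob and Serpina1a, had a placed summit.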

How the data were processed

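Peak lists of 2 m6A IP libraries (c-Kit-enriched Ythdf2 fl/fl foetal liver cells) were analysed. Read data of the IP and of the 2 input libraries were not analysed here. Per the study's methods and the submitters' processing notes, the authors aligned reads to GRCm38 (mm10) with HISAT2 and called peaks in each replicate with MACS2 2.1.1.20160309 without a fragment model. The threshold, the extension length and the control library are not given in the sources used here. The lists carry no strand and no library totals, so depth is known only at summits.

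For each peak the authors deposited the fold enrichment at the summit as a ratio of pileups, the p-value and q-value as −log10, an integer score (not used) and other information, the offset of the summit. IP and control reads at each summit were solved from the deposited fold and −log10 p with the formulas of MACS2, with a tolerance of 0.001 in −log10 p. Whole reads fitted 100% of peaks in both lists, against 0.895% and 0.806% on a shifted grid. The solution, the placement and the densities were tested on simulated data.

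Summits were placed on GENCODE M21 basic transcripts with Python 3.11.15, numpy 2.4.6, pandas 2.3.3 and scipy 1.17.1. Densities are counts per kb of positions that meet the same rule in 7491 genes with a placed summit. With 1 group of 2 samples no test between groups was made, and shares have exact (Clopper-Pearson) 95% intervals. The 2 replicates are biological per the study's methods. Named are the 10 strongest pairs, 9 of the 10 exons with the most members (the other is not reported here), the 5 longest exons with a member in both replicates and the 3 longest without any in genes with a placed summit, up to 6 genes per list by mean −log10 q, all blood and inflammation genes, and exons at the 400-nt limit. Ythdf1, Ythdf2, Virma, Zc3h13, Brca1, Cenpf, Kdm5a and genes without a member were named after their values were seen. The members and lists were chosen with earlier results of these data known.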

Additional observations from a re-analysis of the deposited data

How the results depend on the processing

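Of 50 alternatives, 29 left the value within the replicate spread, or a count within 1.5-fold. The other 21 moved it, and none turned a ratio to the other side of 1. The 29 include the runs that leave out 1 replicate. For shares and ratios such a run lies within the replicate spread by construction, so it says nothing about stability. A minimum fold of 4 took the mean count to 943.5 summits and the genes with a member in both replicates to 589. It took the share found in the other replicate to 73.6%. The minimum was applied to both lists, so a member whose overlapping peak lay under 4 counted as not found. That value therefore does not say whether stronger members recur less. The share found in the other replicate was 82.5% with 50% reciprocal overlap and 76.3% with summits within 100 nt. The ratio of long to short internal exons was 56.9 with exons of at least 300 nt, 10.3 with 600 nt, 30.3 at 400 nt from codons, 30.8 at a −log10 q of 5 or more, 34.3 at a fold of 4, 36.1 with peak midpoints and 26.0 in genes with both classes of exon. The junction ratio was 6.10 with exons of at least 300 nt, 10.5 with 600 nt, 9.51 at a fold of 4 and 6.45 with midpoints. The share with GGAC was 57.6% at a −log10 q of 5, 61.1% at a fold of 4 and 46.6% around midpoints. With 25 and 100 nt on either side it was 36.3% and 77.2%, where 21.2% and 60.7% of windows of those lengths held it.

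Leaving out either replicate gave 1877 to 1954 summits, 90.1% to 92.6% found in the other replicate, ratios of 28.2 to 28.6 and of 7.12 to 7.82, and 56.0% to 57.0% with GGAC. No paired analysis was possible because only the IP libraries have peak lists, so there was no second group to pair them with. Control reads limit weak summits, since 5.37% and 6.02% of members had under 2 of them. Groups of 2 are too small to look for a sample that stands apart.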
